A study of Mus musculus with 12 samples.

Results

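Expression of 9 genes of the Nodal, Lefty and Activin pathway was measured in mouse embryonic stem (ES) cells after knockdown (KD) of chromatin factors. These factors write, oxidise or read DNA methylation or belong to the NuRD complex. The genes were Nodal, Gdf3, Tdgf1, Acvr2b, Lefty1, Lefty2, Foxh1, Skil and Smad7, and they were found by symbol through the probe annotation of the arrays. All 9 were measured, by 13 probes, among 29839 genes tested on 39429 probes. E14 ES cells, a feeder-independent line grown in serum with LIF on gelatin, received esiRNAs (enzymatically made pools of short interfering RNAs) by lipofection, and total RNA was taken 48 h later. There were 6 groups of 2 one-colour (Cy3) arrays. EGFP KD, in which the esiRNA targets a reporter that is no mouse gene, was the control for KD of Dnmt1 (the maintenance DNA methyltransferase), Tet1 (a methylcytosine dioxygenase), Mbd2 (a methyl-CpG binding protein), Mbd3 and Chd4. Mbd2, Mbd3 and Chd4 are members of the NuRD nucleosome remodeling and deacetylase complex. All 6 groups share the line, the medium and the transfection, so no array shows untransfected cells.

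Nodal, Gdf3 and the Activins are ligands of the TGF-beta superfamily that bind type I and type II Activin receptors, and Nodal and Gdf3 also need a coreceptor of the Cripto family. The receptors phosphorylate Smad2 and Smad3, which enter the nucleus with Smad4 and act through partners such as Foxh1. Nodal and both Lefty genes are themselves targets of the pathway, and because Lefty proteins block Nodal the pathway contains a loop of positive and a loop of negative feedback. ES cells express much of the pathway, which in the embryo maintains the epiblast and then patterns mesoderm and endoderm.

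The 12 arrays came from 3 slides. Replicate 1 of EGFP, Mbd2, Dnmt1 and Mbd3 KD was on slide 1. Both Tet1 KD arrays were on slide 2 with Chd4 KD replicate 1 and EGFP KD replicate 2, and slide 3 had replicate 2 of the other KDs and no control array. Between 76.9% and 95.2% of probes were above background on an array, and only 2 arrays per group limit the precision. The targeted mRNA was lower in Dnmt1, Mbd3 and Chd4 KD on both arrays (log2 fold changes -1.99, -2.96 and -1.28, with limma adjusted p of 0.37, 0.00396 and 0.042). The brighter Tet1 probe, however, differed from the EGFP KD mean by -0.02 where the label is Tet1 KD replicate 1, and by -1.79 where it is Mbd2 KD replicate 1. The dimmer Mbd2 probe differed by -1.75 on the former and by -0.24 on the latter (the brighter by -0.20 and -0.08), so these 2 arrays go against their labels. On replicate 2 the same Tet1 probe was at -1.81 in Tet1 KD and the same Mbd2 probe at -1.77 in Mbd2 KD. The 2 arrays that go against their labels were kept as labelled, and some results that rest on them are also given without them. Counts of genes whose arrays do not overlap, or with an unadjusted p under 0.05, are given only with them. Of 8 ES cell markers, 7 were above background on all 12 arrays and Nanog, by a probe near the floor of the scale, on 10. Dppa5a was saturated on 12 arrays and Pou5f1, Zfp42 and Esrrb on 11 each, so these markers show that the cells express ES cell genes but could hide a difference between KDs.

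Since Dnmt1, Tet1 and Mbd2 write, oxidise or bind methyl groups at CpG dinucleotides, the promoters of pathway genes are shown with each CpG in capitals. The study describes Mbd3 as binding hydroxymethylcytosine rather than methylcytosine, a point it calls disputed, and Chd4 as a constituent of NuRD. RefSeq promoter sequence (GRCm38.p6) was at hand for 3 of the 9 genes, Nodal, Tdgf1 and Acvr2b, and for Inhbb and Smad3, which are described below because they changed. Each run is the 250 bases before a transcription start, 5′ to 3′ in the direction of the gene, at chr10:61417722-61417971 on the plus strand for Nodal, chr9:110946159-110946408 on the minus strand for Tdgf1, chr9:119401928-119402177 on the plus strand for Acvr2b, chr1:119422249-119422498 on the minus strand for Inhbb and chr9:63757995-63758244 on the minus strand for Smad3. The Acvr2b window lies inside the annotated gene, which begins at chr9:119401583, so it precedes a later start of that gene.
Nodal: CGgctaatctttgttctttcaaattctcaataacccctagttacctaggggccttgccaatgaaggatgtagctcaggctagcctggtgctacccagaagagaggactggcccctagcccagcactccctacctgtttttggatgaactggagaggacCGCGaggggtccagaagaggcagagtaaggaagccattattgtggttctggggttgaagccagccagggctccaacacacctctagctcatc
Tdgf1: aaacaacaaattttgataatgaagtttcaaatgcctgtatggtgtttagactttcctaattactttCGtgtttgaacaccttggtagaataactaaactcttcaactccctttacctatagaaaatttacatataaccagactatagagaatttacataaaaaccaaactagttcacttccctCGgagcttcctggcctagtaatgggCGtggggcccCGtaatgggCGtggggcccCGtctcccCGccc
Acvr2b: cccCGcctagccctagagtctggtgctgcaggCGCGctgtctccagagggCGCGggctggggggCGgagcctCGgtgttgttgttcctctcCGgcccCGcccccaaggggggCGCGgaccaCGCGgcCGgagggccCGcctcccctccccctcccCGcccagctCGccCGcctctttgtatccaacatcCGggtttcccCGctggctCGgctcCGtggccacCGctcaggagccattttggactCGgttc
Inhbb: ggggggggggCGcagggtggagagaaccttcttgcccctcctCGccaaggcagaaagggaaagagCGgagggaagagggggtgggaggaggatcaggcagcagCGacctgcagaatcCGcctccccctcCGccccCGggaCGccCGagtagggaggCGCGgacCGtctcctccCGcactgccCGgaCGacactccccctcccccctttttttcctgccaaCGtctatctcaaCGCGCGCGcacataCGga
Smad3: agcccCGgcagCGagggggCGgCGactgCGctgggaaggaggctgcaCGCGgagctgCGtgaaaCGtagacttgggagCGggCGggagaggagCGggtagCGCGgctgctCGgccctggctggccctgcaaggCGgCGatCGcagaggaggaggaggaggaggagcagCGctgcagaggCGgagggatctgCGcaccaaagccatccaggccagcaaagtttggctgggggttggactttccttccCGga
The Nodal promoter held 3 CpGs and that of Tdgf1 held 7, against a median of 6 over 32851 mouse promoters of the same length, of which 29% had fewer than Nodal and 53.7% fewer than Tdgf1. The promoters of Inhbb, Smad3 and Acvr2b were CpG rich, with 21, 22 and 24 CpGs, and 83.7%, 85.2% and 88% of promoters had fewer. The motif AATCCACA, a binding motif of the Foxh1 type, was searched on both strands and was in none of the 5 windows, and 0.718% of all promoters held it. Methylation was not measured on these arrays.

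Of the 9 genes, 1 changed in 1 KD. Gdf3 fell in Chd4 KD, in which 3.19% of all genes tested were called (952 genes, limma adjusted p under 0.05) and 1.24% were called lower, and no other gene of the 9 passed in any comparison. In Mbd3 KD none of the 9 was called against 0.764% of all genes. In Dnmt1, Tet1 and Mbd2 KD limma called none of the 9 and 0% of all genes, although 1411, 850 and 622 genes had an unadjusted p under 0.05 (4.73%, 2.85% and 2.08%), none of the 9 among them. At that unadjusted threshold 3 of the 9 passed in Mbd3 KD (Lefty1, Gdf3 and Skil), beside 9.66% of all genes, and 3 in Chd4 KD (Lefty2, Gdf3 and Skil), beside 12.8%. The median log2 fold change of the 9 was 0.04 for Chd4 KD, -0.07 for Mbd3 KD, 0.03 for Mbd2 KD, -0.22 for Tet1 KD and 0.05 for Dnmt1 KD. Over all genes it was 0, -0.03, -0.00422, 0.09 and -0.02 in the same order. All 5 comparisons share the EGFP KD arrays.

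**Figure D1:**
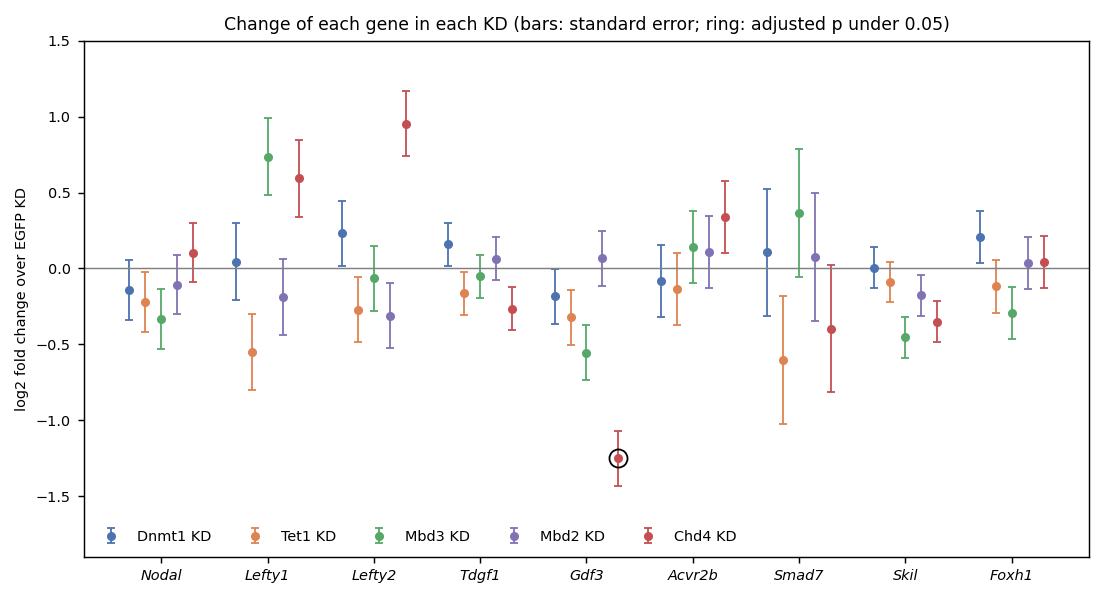
Log2 fold change over EGFP KD (y axis) of the 9 genes (x axis) in the 5 KDs (colors), with bars for the standard error of the limma fit over 12 arrays. The ringed point is Gdf3 in Chd4 KD, at -1.25, the only value with an adjusted p under 0.05. Lefty2 in Chd4 KD lies highest, at 0.95.

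Among the ligands, Gdf3 was the gene that changed. Gdf3 encodes a Nodal-related ligand that ES cells make and lose on differentiation. Its log2 signal over the 75th percentile of the array, the scale used for every level below, was 4.02 and 3.70 in EGFP KD and 2.57 and 2.65 in Chd4 KD. Both Chd4 KD arrays lay below each of the other 10 arrays. Gdf3 fell by 1.25 on the log2 scale, or 2.38-fold (standard error 0.18, limma adjusted p = 0.0144). As these are bulk samples, fewer cells making a transcript and less transcript per cell cannot be told apart. A further Gdf3 probe, dimmer and read on its own, also fell in Chd4 KD, by 0.53 (standard error 0.09, limma adjusted p = 0.0242 with every probe as its own feature). Within slide 2, where Chd4 KD replicate 1 had a control beside it, the difference in Gdf3 was -1.13, and with slide as a block it was -1.33 (limma adjusted p = 0.0242).

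The call for Gdf3 was lost, with no change in direction, in 5 of 21 alternatives. These left out EGFP KD replicate 1 (adjusted p = 0.0938), Chd4 KD replicate 1 (0.0857), Chd4 KD replicate 2 (0.0855) or both arrays that go against their labels (0.0623), or fitted the 4 arrays of the comparison alone (0.192). In the other KDs Gdf3 did not pass the limma test. It read 3.09 and 3.52 in Mbd3 KD, lower than both control arrays (log2 fold change -0.56, standard error 0.18, adjusted p = 0.331), and the dimmer probe gave -0.42 (adjusted p = 0.11). Levels of Mbd2 KD (3.89 and 3.96) and Dnmt1 KD (3.60 and 3.76) overlapped the controls. Those of Tet1 KD (3.69 and 3.39) were under both (log2 fold change -0.32, standard error 0.18). Of these, only replicate 1, at 3.69 and against its label, was just under them. In Chd4 KD both probes of Gdf3 were lower by more than the spread between arrays.

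Nodal, the ligand after which the pathway is named, varied little. Its log2 level was 2.25 and 2.26 in EGFP KD, 1.89 and 1.95 in Mbd3 KD and 2.31 and 2.41 in Chd4 KD. The Mbd3 KD arrays lay below both controls and the Chd4 KD arrays above them, by -0.33 and 0.10 (standard error 0.20 for each, limma adjusted p = 0.729 and 0.941), and neither difference passed. Replicates of Dnmt1, Tet1 and Mbd2 KD were further apart than these differences, at 1.93 and 2.29, 2.24 and 1.83, and 1.94 and 2.36. Of these, Tet1 KD replicate 1, at 2.24, and Mbd2 KD replicate 1, at 1.94, go against their labels. The difference in Nodal was -0.22 in Tet1 KD and -0.11 in Mbd2 KD with these arrays. Without them it was -0.43 and 0.10. With slide as a block, the difference in Nodal was -0.42 in Mbd3 KD and -0.02 in Chd4 KD, so its direction in Chd4 KD depends on the slide term.

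**Figure D2:**
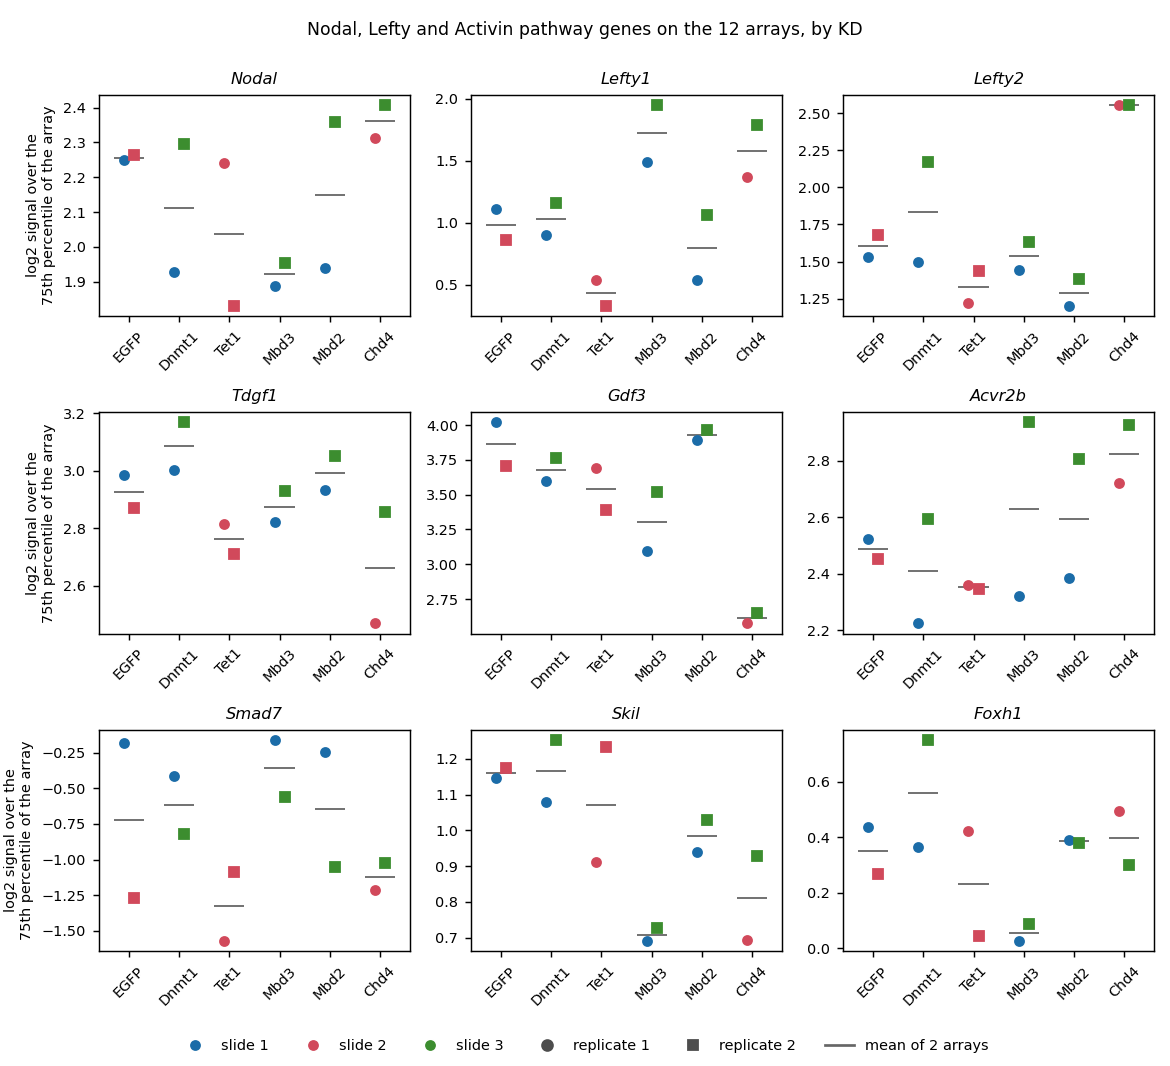
Log2 signal over the 75th percentile of the array (y axes, each with its own range) for the 9 genes on the 12 arrays, by KD (x axes). Colors give the slide, circles and squares the replicate and lines the mean of 2 arrays. Gdf3 and Lefty2 in Chd4 KD lie outside the range of all other arrays, and Smad7 is higher on slide 1 than on slide 2.

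Tdgf1 encodes Cripto, the coreceptor through which Nodal and Gdf3 reach the Activin receptors. The brightest of its 3 probes read 2.98 and 2.87 in EGFP KD and 2.47 and 2.86 in Chd4 KD, a difference of -0.26 (standard error 0.14, limma adjusted p = 0.567). The probes for Tdgf1 did not move together. A dimmer probe was higher in Dnmt1 KD, at 1.16 and 1.41 against 0.44 and 0.63 in EGFP KD, by 0.75 (standard error 0.25, limma adjusted p = 0.813), where the brightest gave 0.16 and the remaining probe read 2.05 and 1.35 against 1.83 and 1.58. None of the 3 probes was called in a KD, and which transcripts each one reads is not given in the sources used here.

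Acvr2b, a type II receptor that binds Activins and Nodal, read 2.52 and 2.45 in EGFP KD and 2.72 and 2.93 in Chd4 KD. Both Chd4 KD arrays were above both controls, by 0.34 (standard error 0.24, limma adjusted p = 0.744), and with slide as a block the difference was 0.13. In Mbd3 KD the replicates, at 2.32 and 2.94, fell on either side of the controls. On every slide 3 array Acvr2b read above all arrays of slides 1 and 2 of the same KD, and its mean was 2.82 on slide 3 against 2.36 on slide 1 and 2.47 on slide 2.

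Lefty1 and Lefty2 encode secreted inhibitors that bind Nodal and its coreceptor, and both are direct targets of the pathway. The genes are close paralogs and each was read by 1 probe, so hybridisation of one transcript to the probe of the other cannot be told apart from its own signal here. Lefty2 was 1.53 and 1.68 in EGFP KD and 2.55 and 2.56 in Chd4 KD, where both arrays were above each of the other 10. The difference of 0.95, or 1.93-fold (standard error 0.21), did not pass (limma adjusted p = 0.0729). Lefty2 was called in 4 of 21 alternatives. These were normexp background correction (log2 fold change 1.18, limma adjusted p = 0.0146), the replicate number as a block (0.95, limma adjusted p = 0.0312) and either Dnmt1 KD array left out (0.95). The 2 fits without a Dnmt1 KD array are the same for this comparison, since the array that remains adds nothing to the estimate of spread. Over all 21 its log2 fold change stayed between 0.79 and 1.18, and within slide 2 it was 0.88.

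Lefty2 levels in the remaining KDs were 1.44 and 1.63 for Mbd3, 1.20 and 1.38 for Mbd2, 1.22 and 1.44 for Tet1 and 1.50 and 2.17 for Dnmt1. Apart from Dnmt1 KD replicate 2, none of these arrays exceeded the higher control. Dnmt1 KD replicate 2 lay between the controls and Chd4 KD, while its replicate 1 was just under both controls. In Mbd3 KD the difference was -0.07 (standard error 0.21, limma adjusted p = 0.996).

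Lefty1 was highest in Mbd3 KD, at 1.49 and 1.95, and in Chd4 KD, at 1.37 and 1.79, against 1.11 and 0.86 in EGFP KD. All 4 arrays were above both controls. The differences from the control mean were 0.74 and 0.59 (standard error 0.25 for each), and neither passed the limma test (adjusted p = 0.369 and 0.396). With slide as a block the Lefty1 difference in Mbd3 KD shrank to 0.47, and within slide 1 it was 0.38. In Chd4 KD it was 0.40 with slide as a block and 0.51 within slide 2. Both Tet1 KD arrays, at 0.54 and 0.33, were under the controls (-0.55, adjusted p = 1), as was Mbd2 KD replicate 1 at 0.53. Of these, Tet1 KD replicate 1, at 0.54, and Mbd2 KD replicate 1 go against their labels. Without Tet1 KD replicate 1 the difference in Tet1 KD was -0.66. Mbd2 KD replicate 2 read 1.06, and Dnmt1 KD 0.90 and 1.16.

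Downstream of the receptors, Foxh1, the forkhead partner of Smad2 and Smad3, read 0.44 and 0.27 in EGFP KD, 0.03 and 0.09 in Mbd3 KD and 0.49 and 0.30 in Chd4 KD. The Mbd3 KD arrays were below both controls, by -0.30 (standard error 0.17, limma adjusted p = 0.724), and the Chd4 KD arrays overlapped them. Skil encodes SnoN, a nuclear corepressor of Smad complexes that is itself induced by the pathway. Its brighter probe read 1.15 and 1.18 in EGFP KD, 0.69 and 0.73 in Mbd3 KD and 0.69 and 0.93 in Chd4 KD. All 4 of these KD arrays were under both controls, by -0.45 and -0.35 (standard error 0.13 for each, limma adjusted p = 0.271 and 0.313). The dimmer Skil probe gave -0.52 and -0.49, in the same direction, and with slide as a block the brighter gave -0.54 and -0.41, none of them called.

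Smad7, an inhibitory Smad induced by TGF-beta signals that blocks the receptors, followed the slides. Its controls were at -0.18 on slide 1 and -1.27 on slide 2, further apart than any of its differences between groups. The mean of Smad7 was -0.25 on slide 1, -1.29 on slide 2 and -0.87 on slide 3. Its largest difference from EGFP KD was -0.60 in Tet1 KD, which lies wholly on slide 2 (standard error 0.42, limma adjusted p = 1), and there the value was -0.14 with slide as a block. Every Smad7 difference between groups was thus within the spread of its 2 controls.

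Both arrays of a KD lay above or below both controls for 7 of the 9 genes in Chd4 KD, where 38% of all genes did so, and for 5 in Mbd3 KD, where 30% did. The count was 6 in Tet1 KD (35.2% of all genes), 2 in Mbd2 KD (22.9%) and 1 in Dnmt1 KD (21.1%). In Tet1 KD all 9 fold changes were below 0, between -0.60 and -0.09, where 34.5% of all genes were below 0. With the array labelled Tet1 KD replicate 1 left out, 8 of the 9 were below 0, Skil being at 0.07, and Lefty1 was the lowest at -0.66. The share of all genes below 0 without that array is not given here. With quantile normalization of all 12 arrays, Tdgf1, Acvr2b and Skil in Tet1 KD were near 0, at -0.03, -0.01 and -0.01. Nodal and Foxh1 were then at -0.10 and -0.09, and Lefty1 and Smad7 at -0.49 and -0.67. In Mbd2 KD the fold changes ran from -0.31 for Lefty2 to 0.11 for Acvr2b. With the array labelled Mbd2 KD replicate 1 left out they ran from -0.33 for Smad7 to 0.32 for Acvr2b. The sign in Tet1 KD also turned for Acvr2b with normexp background correction (0.07), for Skil with the mean of its probes (0.11), for Foxh1 without Tet1 KD replicate 2 (0.07) and for Tdgf1 and Acvr2b in the deposited table. No gene of the 9 was called in either KD with or without these arrays.

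Of 43 other genes of the pathway, grouped by role, 41 were measured (Cer1 and Gsc were not), and 3 of them were called in a KD. In Chd4 KD, 1 rose and 2 fell, where 3.19% of all genes were called, and in Mbd3 KD 1 fell, where 0.764% were. The unadjusted threshold was passed by 9 of the 41 in each of these KDs, or 22%, beside 12.8% and 9.66% of all genes, and the median log2 fold change of the 41 was 0.10 in Chd4 KD and 0 in Mbd3 KD. By role, the calls in Chd4 KD were 1 of 7 ligands, 1 of 4 Smads and anchors and 1 of 8 target genes. No call was made among 7 receptors and coreceptors, 5 extracellular inhibitors and processing enzymes or 10 nuclear and feedback genes. In Dnmt1, Tet1 and Mbd2 KD none of the 41 was called by limma, and 3, 1 and 3 had an unadjusted p under 0.05, beside 4.73%, 2.85% and 2.08% of all genes.

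Inhbb encodes the beta B subunit of Activin B and inhibin B, and it fell in both Mbd3 KD, where 0.285% of all genes were called lower, and Chd4 KD. Its log2 level was 1.71 and 1.95 in EGFP KD, 0.14 and 0.28 in Mbd3 KD and -0.85 and -0.76 in Chd4 KD. The 3 groups did not overlap. It fell by 1.62 on the log2 scale, or 3.07-fold, in the former and fell by 2.64, or 6.23-fold, in the latter (standard error 0.12 for each, limma adjusted p = 0.00557 and 0.000449). Inhbb was also lower on both Dnmt1 KD arrays, at 1.14 and 1.36 (-0.58, adjusted p = 0.406), and read 1.81 and 1.87 in Tet1 KD and 1.67 and 1.65 in Mbd2 KD. Without both arrays that go against their labels the adjusted p was 0.0684 in Mbd3 KD and 0.0131 in Chd4 KD, and with only the 4 arrays of each comparison it was 0.478 and 0.163.

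Smad3, the receptor-regulated Smad that binds DNA directly, fell in Chd4 KD. It read -0.21 and -0.25 in EGFP KD and -1.54 and -1.19 in Chd4 KD, and so fell by 1.14 on the log2 scale, or 2.20-fold (standard error 0.14, limma adjusted p = 0.00711). In Mbd3 KD, in contrast, both arrays were above the controls, at 0.55 and 0.32 (log2 fold change 0.66, adjusted p = 0.107). A further Smad3 probe was at or next to the floor of the scale on every array, so it carried no difference, and the mean of both probes gave -0.57 in Chd4 KD (adjusted p = 0.0188). The call was lost without EGFP KD replicate 1 (adjusted p = 0.0597) and with only the 4 arrays of the comparison (adjusted p = 0.213).

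Otx2, a homeobox gene of the epiblast and anterior neural plate, rose in Chd4 KD, where 1.95% of all genes were called higher. Its level was 1.14 and 0.94 in EGFP KD and 2.74 and 3.01 in Chd4 KD, higher than on any other array. Otx2 rose by 1.84 on the log2 scale, or 3.58-fold (standard error 0.26, limma adjusted p = 0.0133). Otx2 read 1.76 and 2.07 in Mbd3 KD, also above both controls (log2 fold change 0.88, adjusted p = 0.273). Its call was lost when any of the 4 arrays of the comparison was left out, with adjusted p between 0.0571 and 0.104, and with those 4 arrays alone (adjusted p = 0.171). Further genes named among the targets of the pathway in the embryo, such as Eomes, Mixl1, Lhx1 and T, were not called, and T was not above background in EGFP KD.

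**Figure D3:**
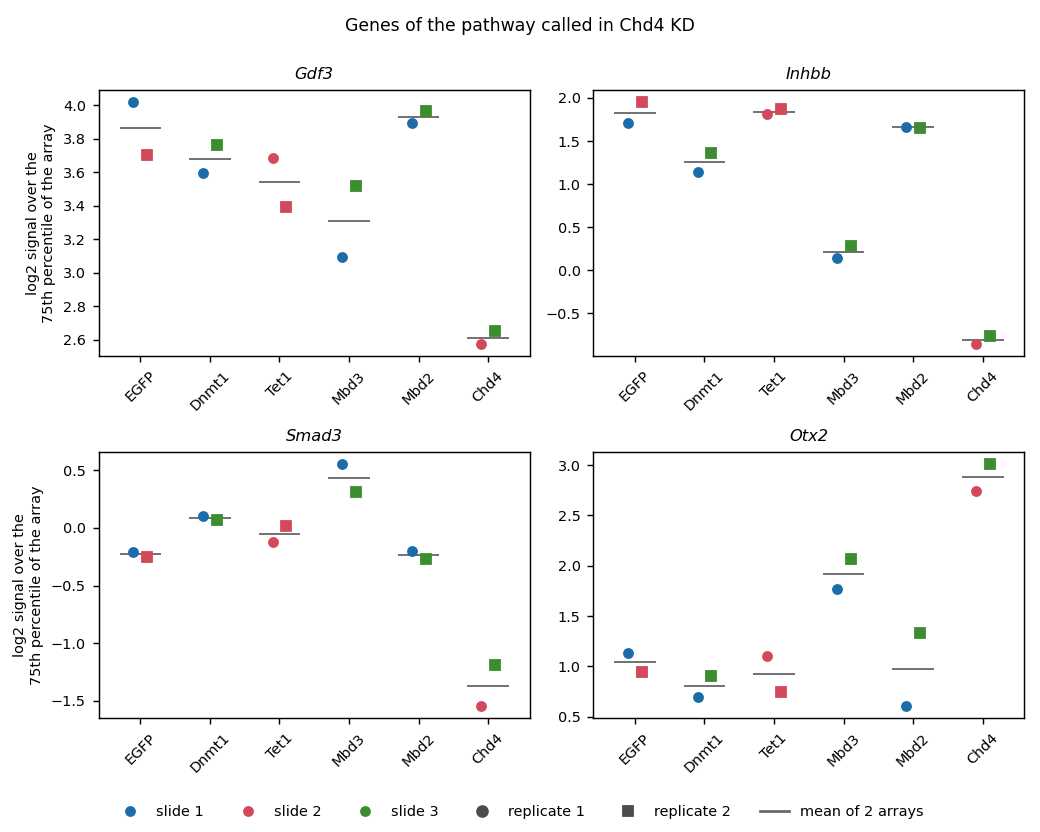
Log2 signal over the 75th percentile of the array (y axes, each with its own range) for Gdf3, Inhbb, Smad3 and Otx2 on the 12 arrays, by KD (x axes). Colors give the slide, circles and squares the replicate and lines the mean of 2 arrays. In all 4 panels the Chd4 KD arrays, on slides 2 and 3, lie apart from the other 10.

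**Figure D4:**
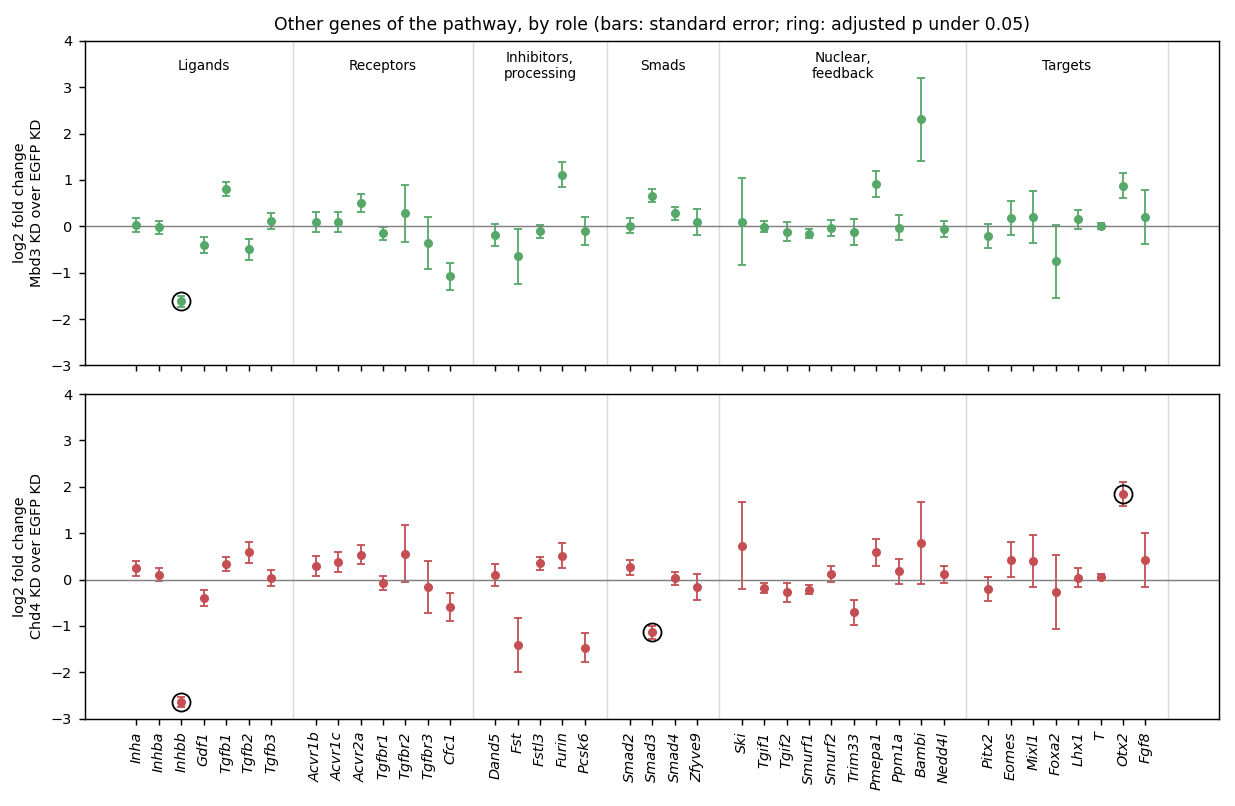
Log2 fold change over EGFP KD (y axes) in Mbd3 KD (upper) and Chd4 KD (lower) of the other 41 pathway genes, ordered by role (x axis), with bars for the standard error of the limma fit. Rings mark Inhbb in Mbd3 KD at -1.62 and Inhbb, Smad3 and Otx2 in Chd4 KD at -2.64, -1.14 and 1.84, the values with an adjusted p under 0.05. Genes at the floor of the scale, such as T, sit near 0.

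To ask whether KDs of NuRD members differed from each other, they were compared directly, so that the EGFP KD arrays entered the estimate of spread but not the fold changes. Between Chd4 and Mbd3 KD limma called none of the 9 genes and 1.45% of all genes, and 2 of the 9 (Lefty2 and Gdf3) had an unadjusted p under 0.05, beside 10.1% of all genes. Lefty2 was 1.02 higher in Chd4 KD, or 2.03-fold (standard error 0.21, limma adjusted p = 0.0907). It was called in 3 of 21 alternatives, with the replicate block (limma adjusted p = 0.0461) and without either Dnmt1 KD array. The 2 fits without a Dnmt1 KD array are again the same for this comparison. Gdf3 was 0.69 lower in Chd4 KD than in Mbd3 KD (adjusted p = 0.17), Nodal 0.44 higher (adjusted p = 0.541) and Foxh1 0.34 higher (adjusted p = 0.634). Lefty1 and Skil differed by -0.14 and 0.10, within the spread of their replicates. Of the 41 other pathway genes, 2 were called between these KDs, and both were lower in Chd4 KD, as were 0.412% of all genes by the same call. Smad3 was 1.80 lower on the log2 scale, or 3.49-fold (limma adjusted p = 0.00215), and Inhbb 1.02 lower, or 2.03-fold (adjusted p = 0.0112). The Smad3 difference was called in 20 of 21 alternatives and that of Inhbb in 15, the losses including each of the 4 arrays compared left out in turn (adjusted p between 0.0572 and 0.0751) and both arrays that go against their labels (0.0787).

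Between Mbd3 and Mbd2 KD none of the 9 was called by limma, against 0.523% of all genes, and 2 of the 9 (Lefty1 and Gdf3) had an unadjusted p under 0.05, beside 6.88%. Lefty1 was higher in Mbd3 KD on both arrays, by 0.92 (standard error 0.25, limma adjusted p = 0.279), and Gdf3 0.62 lower (adjusted p = 0.326). With Mbd2 KD replicate 1, as labelled, left out, these differences were 0.66 (adjusted p = 0.748) and -0.66 (adjusted p = 0.629). Inhbb was 1.45 lower in Mbd3 KD, or 2.73-fold (adjusted p = 0.00869, where 0.154% of all genes were called lower), and its call was lost when Mbd2 KD replicate 1, as labelled, was left out (adjusted p = 0.0526), without Mbd3 KD replicate 1 (0.0646), without both arrays that go against their labels (0.125) and with only the 4 arrays compared (0.706). Arrays did not overlap for 5 of the 9 genes between Chd4 and Mbd3 KD, where 32.1% of all genes did not, and for 6 between Mbd3 and Mbd2 KD, where 21.5% did not.

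Markers of other cell types moved in the same KDs. In Chd4 KD, Col1a1 and Thy1, both on a list of fibroblast markers, rose by 2.49 and 1.42 on the log2 scale and Krt18, a trophectoderm keratin, by 1.18 (limma adjusted p = 0.00197, 0.00204 and 0.0197), beside the fall of Gdf3, Inhbb and Smad3. Of that fibroblast list 5 of 6 were measured (Postn was not), 2 of 5 rose, and Col1a2, the partner chain of Col1a1, Col3a1 and Lum were at -0.02, -0.74 and -1.07, not called. Its summed signal over the 75th percentile was 4.35 and 4.94 in EGFP KD, 8.96 and 11.6 in Chd4 KD and 9.01 and 9.19 in Mbd3 KD, most of it from Thy1, while the median log2 fold change of the list was -0.02 in Chd4 KD and -0.23 in Mbd3 KD. The sum of 6 trophectoderm markers, most of it from Krt18, was 2.76 and 2.91 in EGFP KD, 5.47 and 6.08 in Chd4 KD and 3.96 and 4.48 in Mbd3 KD. Of these 6, 5 were above 0 and 1 below in Chd4 KD (median 0.25) and 3 above and 3 below in Mbd3 KD (median 0.06), where Hand1 was at -1.05, and Cdx2 and Elf5 were above background on 8 and 6 of the 12 arrays. In Mbd3 KD, Thy1 rose by 1.28 (adjusted p = 0.0108) and Gata3, above background on 7 of the 12 arrays, was called lower (adjusted p = 0.0349). Both Mbd3 KD arrays were at the floor of the scale for Gata3, which sets its log2 fold change of -0.86. Dnmt1 and Tet1 KD were at the floor too and had the same fold change, not called there. Among the ES cell markers that were neither saturated nor near the floor, Sox2, Klf4 and Fbxo15 gave 0.00, -0.30 and 0.52 in Chd4 KD and 0.41, 0.54 and 0.16 in Mbd3 KD, none of them called. No neural or primitive endoderm marker was called in these KDs. Of 6 primitive endoderm markers, 5 were above 0 and 1 below in each (median 0.63 in Chd4 KD and 0.16 in Mbd3 KD). By limma, 3 of them had an unadjusted p under 0.05 in Chd4 KD, beside 12.8% of all genes, and 2 in Mbd3 KD, beside 9.66%. In Chd4 KD Sox7 was highest, at 1.41 (limma adjusted p = 0.0701), and Gata6 was at -0.41. The median of the 4 neural markers was 0.23 in Chd4 KD and -0.33 in Mbd3 KD. The part of all these markers in the results above was not tested.

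Over the 12 arrays the log2 range of the 9 genes was narrowest for Skil (0.56) and Nodal (0.58) and widest for Lefty1 (1.63), Gdf3 (1.45), Smad7 (1.41) and Lefty2 (1.36). By group means Lefty1 ran from Mbd3 and Chd4 KD at the top through Dnmt1, EGFP and Mbd2 KD to Tet1 KD. The means of Mbd3 and Chd4 KD differed by 0.14 and those of Dnmt1 and EGFP KD by 0.05, both less than the spread of their replicates. Among 15645 genes with a symbol and above background on all arrays, those with the pattern most like Nodal were Prr12, Phf23 and Alox5ap (Pearson r over the 12 arrays of 0.93, 0.90 and 0.90). For Lefty1 they were Bspry, Nrp2 and Akt1 (0.98, 0.95 and 0.95), and for Lefty2 Rtn2, Neurl1a and Lrrc8a (0.94 for each). Lefty1 and Lefty2 themselves had r = 0.57, Lefty2 and Gdf3 r = -0.72 and Nodal and Foxh1 r = 0.62. These are descriptions over arrays that share groups and slides.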

How the data were processed

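The 12 one-colour Agilent arrays were read with Feature Extraction (10.7.1.1 per the labels), and the authors deposited 1 scanner table per array. The deposited intensity used here was the processed signal, already background-corrected, with flags (other) for outliers, saturation and signal above background. A further deposited table, with log2 values of each KD array over EGFP KD on a compressed scale of unstated construction, served as an alternative for direction only.

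Outlier spots were left out (92 to 306 of 43020 per array), intensities were divided by the 75th percentile of each array, floored at 0.0344 (log2 of -4.86) and log2 transformed, and spots of a probe were averaged. Genes were named through the accession of the probe (RefSeq table), which gave a name to 71.4% of spots. The probe with the highest mean stood for a gene, and genes above background on no group of arrays were left out, leaving 29839. Arrays were fitted by limma (3.58.1, R 4.3.3) with all 6 groups in 1 model, with Benjamini-Hochberg adjustment over all genes in each comparison and calls at 0.05. The script was tested on simulated data. The 75th percentile of the processed signal was between 1784 and 2452 on each array, and the number of arrays limits the precision.

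The study names its samples biological replicates, while the labels do not say whether they came from separate cultures, so p-values measure the spread between these arrays. No replicate pair held identical spots. The 9 genes, the other pathway genes (named where called in any comparison, otherwise counted by role) and the marker lists were chosen with earlier results of these data known. Alternatives were quantile normalization, normexp background correction (offset 50), no filter on dim probes, the mean of the probes of a gene, the replicate number or slide as a block, a trended and robust variance prior, only the 4 arrays of a comparison, and arrays left out. Every probe as its own feature was added after seeing the data. Probe sequences and a genome were not used here.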

Additional observations from a re-analysis of the deposited data

How the results depend on the processing

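No log2 fold change of a called gene changed direction under any alternative. The counts of called genes moved more. With quantile normalization 136 genes were called in Mbd3 KD and 102 between Mbd3 and Mbd2 KD (228 and 156 in the main analysis). Normexp background correction called 5 genes in Mbd2 KD, 11 in Tet1 KD and 12 in Dnmt1 KD. In Chd4 KD it called 712 genes (952 in the main analysis), with 2 of the 9 pathway genes among them. Without the filter on dim probes 1 gene was called in Tet1 KD and 7 in Dnmt1 KD. The mean of the probes of a gene gave 1 gene in Tet1 KD, and 2 other pathway genes both in Mbd3 KD (among 209 genes called) and between Mbd3 and Mbd2 KD. Slide as a block left 56 genes in Mbd3 KD. A trended and robust variance prior left 65 genes in Mbd3 KD, 263 between Chd4 and Mbd3 KD and 63 between Mbd3 and Mbd2 KD. With only the 4 arrays of a comparison, 0 genes were called in every comparison, the 9 and the other pathway genes included. Without both arrays that go against their labels, 0 genes were called in Mbd3 KD (0 other pathway genes), 3 in Mbd2 KD, 509 in Chd4 KD (0 of the 9), 126 between Chd4 and Mbd3 KD (1 other pathway gene) and 12 between Mbd3 and Mbd2 KD (0 other pathway genes). The cause of these moves was not tested, beyond the fewer arrays fitted in the last 2 alternatives.

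Leaving out 1 array at a time, the genes called were 318 to 858 in Chd4 KD, 28 to 123 in Mbd3 KD, 0 to 48 in Mbd2 KD, 0 to 32 in Tet1 KD, 0 to 39 in Dnmt1 KD, 129 to 341 between Chd4 and Mbd3 KD and 23 to 111 between Mbd3 and Mbd2 KD. Of the 9 pathway genes 0 to 2 were called in Chd4 KD, 0 to 1 between Chd4 and Mbd3 KD and 0 in the other comparisons. Of the other pathway genes it was 1 to 3 in Chd4 KD, 1 in Mbd3 KD, 1 to 2 between Chd4 and Mbd3 KD and 0 to 1 between Mbd3 and Mbd2 KD. The lowest counts in Chd4 and Mbd3 KD were without EGFP KD replicate 1.

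Same-numbered arrays shared variation in most pairs of groups. Their deviations correlated above 0.1 in 10 of 15 pairs (-0.0421 to 0.767, median 0.384). All slide 1 arrays were replicate 1 and all slide 3 arrays were replicate 2, so replicate number and slide cannot be fully told apart. The methods of the study name no pairing, so the main fit had no block. With the replicate block 2 of the 9 were called in Chd4 KD (Gdf3 and Lefty2) and 1 between Chd4 and Mbd3 KD (Lefty2). Of the other pathway genes 2 were called in Mbd3 KD and 4 in Chd4 KD (1 and 3 without the block). The share of all genes called with the block is not given here, so these counts cannot be set against it. No other call among the 9 genes changed with the block.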
